A study of Homo sapiens with 6 samples.

Results

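The NRF2 pathway and the thioredoxin system were examined in SiHa PR cells with and without P4HA3 overexpression through 10 genes chosen by name. These were NFE2L2, KEAP1, BACH1, TXN, TXNRD1, SRXN1, OSGIN1, NQO1, HMOX1 and PIR, and all 10 were found among the 60664 genes of the count table. SiHa is an established cell line from a human squamous carcinoma of the cervix, and SiHa PR denotes the parental cells from which a lymph node metastatic derivative had been selected. Poly-A RNA was sequenced from 3 control libraries, named only SiHa PR in the labels, and from 3 libraries of SiHa PR cells overexpressing P4HA3, the alpha 3 subunit of collagen prolyl 4-hydroxylase. The labels give no drug, dose or time for either group. The study's methods describe a lentiviral P4HA3 construct and a separate doxycycline-inducible one, and which of them the sequenced cells carried is not given. Whether the sequenced cells were a pool or a single clone, and whether the samples of a group came from separate cultures, is also not given, so the p-values measure only the spread between these samples.

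NRF2, the product of NFE2L2, is a transcription factor that switches on genes against oxidative and electrophilic stress. In unstressed cells KEAP1 binds it and delivers it to the CUL3 ubiquitin ligase for degradation, so that much of its control takes place on the protein and is not visible in RNA. With a small MAF protein as partner, NRF2 binds the antioxidant response element, a site at which the haem-sensing repressor BACH1 also acts. The thioredoxin system passes electrons from NADPH through thioredoxin reductase to thioredoxin, which reduces peroxiredoxins and ribonucleotide reductase, and several of its genes are textbook NRF2 targets. The study was concerned with ferroptosis, a death by lipid peroxidation against which these enzymes are part of the defence, and the comparison asks which RNAs differ when P4HA3 is raised.

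The antioxidant response element is shown first because it is the sequence through which NRF2 and BACH1 meet these genes. Promoters in the RefSeq table of GRCh38.p14 matched 9 of the 10 genes, and HMOX1 had no entry. The core TGACNNNGC was searched on both strands of the 250 bases before each start site. It was found in 2 of the 9 genes, TXNRD1 and KEAP1, and in 13.2% of all 27305 genes of the table, or 10.9% of its 35116 promoters. The stricter form TGACTCAGC, which contains the AP-1 motif TGACTCA, was searched on both strands of 5000 bases and was found for 2 of the 9 genes, NQO1 and BACH1, and for 7.27% of all genes, or before 6.44% of all start sites. Each sequence runs 5′ to 3′ in the direction of the element, whose 9 bases are in capitals.
TXNRD1, first start site: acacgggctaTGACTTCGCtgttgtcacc
TXNRD1, second start site: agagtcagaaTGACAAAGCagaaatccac
KEAP1, same strand as the gene: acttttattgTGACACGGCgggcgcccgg
KEAP1, opposite strand: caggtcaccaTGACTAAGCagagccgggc
NQO1: gcagtcacagTGACTCAGCagaatctgag
BACH1: ctggggcgaaTGACTCAGCaacccaactt
The first TXNRD1 sequence is chr12:104215670-104215698 on the plus strand, 99 bases before the start site and outside any annotated gene. The second, chr12:104286920-104286948 on the minus strand, lies 102 bases before a start site inside the gene and within a TXNRD1 exon. Both KEAP1 sequences, chr19:10502807-10502835 on the minus strand and chr19:10502784-10502812 on the plus strand, lie within KEAP1 exons, before an internal start site. The NQO1 element, chr16:69726997-69727025 on the minus strand, is 455 bases before the start site and within an exon of the divergent transcript NQO1-DT. That of BACH1, chr21:29300306-29300334 on the minus strand, is 4888 bases before a start site, between exons of BACH1. A match of letters is a description and no evidence of binding.

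The libraries held between 21773488 and 24939948 counts. P4HA3 itself had between 62 and 93 counts in the control libraries and between 44775 and 49097 in the overexpressing ones, as labelled. Levels are given as CPM, which scales each library's counts to a common total after TMM normalization. SE is the standard error of a log2 fold change. Calls are those of edgeR's quasi-likelihood test with a Benjamini-Hochberg adjusted p under 0.05. Of 10 markers listed for cervical squamous epithelium, 8 had at least 10 counts in every library. The sum of all 10 was between 7623 and 8776 CPM in control and between 6468 and 7541 CPM in P4HA3 libraries, without overlap. Most of it was KRT17 (mean 5338 against 4266 CPM), KRT8 (1817 against 1703 CPM) and KRT18 (942.2 against 716.3 CPM), and CDH1 was at 16.5 against 9.66 CPM. The defining markers KRT5 and TP63 had at most 4 and 13 counts, and KRT14 had between 21 and 40. The sum therefore does not rest on these 3 genes and does not by itself show a squamous identity. Smooth muscle markers were tested because the deposited growth protocol describes uterine muscle. They summed to between 7.23 and 10.7 CPM in control and between 8 and 10.9 CPM in P4HA3 libraries. Most of each sum was ACTA2, of 7 markers the only 1 with at least 10 counts in every library. ACTG2 had 30 counts in control replicate 3, 40 in P4HA3 replicate 1 and 44 in P4HA3 replicate 3, but at most 1 elsewhere. In the same order DES had 6, 2 and 8 counts and MYH11 had 9, 7 and 3, against at most 1 and 2 elsewhere. The source of these few reads was not tested. Immune and fibroblast markers, of which 5 of 7 had at least 10 counts in every library, summed to between 219.7 and 239.2 CPM in control and between 151.1 and 175.5 CPM in P4HA3 libraries. CD14 made most of that difference (99.9 against 45.1 CPM), while CD3E had 0 counts in every library and PTPRC at most 1, and the part of the squamous, immune and fibroblast markers in the results was not tested. In bulk RNA, fewer cells of a type and less RNA per cell cannot be told apart. The libraries differed in how counts followed the GC content of genes. When a library's difference from its group was ranked against GC content across genes, Spearman's rho came to -0.52 for control replicate 3 and -0.48 for P4HA3 replicate 2, but to 0.38 for control replicate 2 and 0.45 for P4HA3 replicate 1. For the fold change between the groups rho was -0.58. Results are therefore also given from a fit with these trends on GC content and transcript length removed, written below as with the trend removed, which also takes out any true difference that follows GC content or length.

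TXNRD1 and OSGIN1 rose with P4HA3 overexpression, by 1.52-fold and 1.54-fold, and the other 8 genes did not pass the test. The share called was thus 2 of 10, against 20.8% of the 15130 genes tested. For higher calls alone it was 2 of 10 against 9.36%, and for lower calls 0 of 10 against 11.4%. At an unadjusted p under 0.05 in edgeR's test, 5 genes were higher (NFE2L2, TXNRD1, SRXN1, OSGIN1 and NQO1) and 0 lower, where 19.3% of all genes were higher and 19.4% lower. DESeq2 and limma-voom also called 2 of the 10, higher, against 20.5% and 20.2% of all genes in either direction. SRXN1 had no adjusted p from DESeq2 and could not be called there. The median log2 fold change of the 10 genes was 0.20, against 0.01 over all genes tested. All 10 log2 fold changes were positive, compared with 50.7% of all genes, but those of KEAP1, HMOX1 and TXN changed sign under other processing. The groups did not overlap in 3 of the 10 genes, TXNRD1, OSGIN1 and NQO1, all higher with overexpression, against 40.1% of all genes in either direction, 19.7% higher and 20.4% lower. With the trend removed 4 genes were called, KEAP1 and HMOX1 being added and all of them higher, against 18.5% of all genes, 9.23% higher and 9.3% lower.

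**Figure D1:**
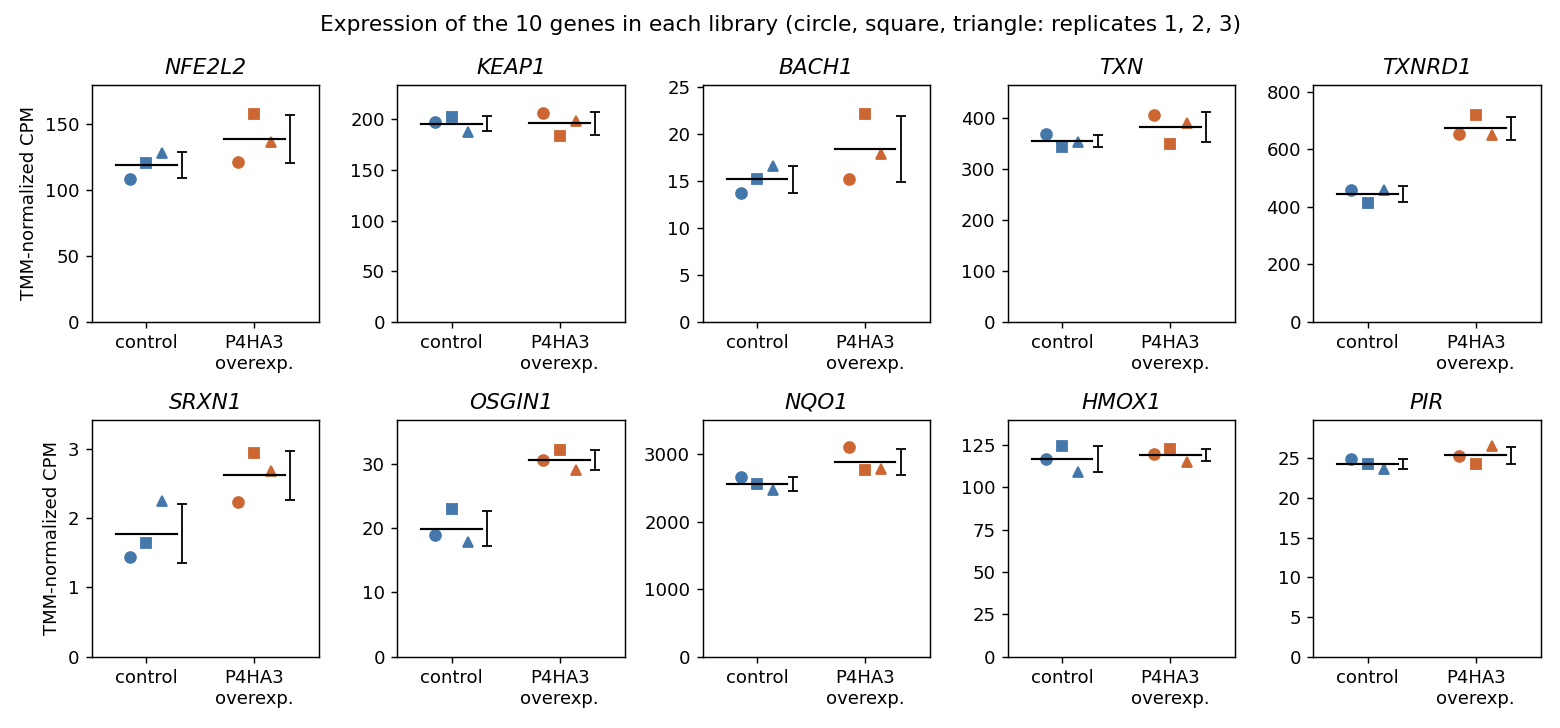
TMM-normalized CPM of the 10 genes in the 3 control and 3 P4HA3-overexpressing libraries, each panel on its own linear axis from 0, with the group mean as a line and the SD beside it. TXNRD1, OSGIN1 and NQO1 are the panels in which the groups do not overlap. P4HA3 replicate 2 (square) is the highest library for NFE2L2, BACH1, TXNRD1, SRXN1 and OSGIN1.

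NFE2L2 (ENSG00000116044), which encodes NRF2, lies on chr2:177218667-177392756 of GRCh38 on the minus strand. Its level was 108, 119.9 and 128.2 CPM in control replicates 1, 2 and 3 and 121, 157.7 and 136.4 CPM in P4HA3 replicates 1, 2 and 3. P4HA3 replicate 1 lay among the controls, while P4HA3 replicates 2 and 3 were above all of them. The log2 fold change was 0.22 (SE 0.0955, adjusted p = 0.116), with a 95% interval from 0.01 to 0.43. NFE2L2 was called without P4HA3 replicate 1 (0.31, adjusted p = 0.0107) and with no filter on low counts (0.23, adjusted p = 0.00782). It was 0.12 without P4HA3 replicate 2, and 0.09 (adjusted p = 0.425) with the trend removed. The 3 genes whose level followed NFE2L2 most closely in log2 CPM over the 6 libraries, among 13369 genes of at least 1 CPM, were MGA, KIF21A and HMMR, with Pearson's r of 0.9998, 0.9991 and 0.9988. In each of them, as in NFE2L2, control replicate 3 was the highest control and P4HA3 replicate 2 the highest library, which are the libraries with the negative GC trend, and their GC contents were 43.2%, 40.7% and 36.2% against 42.1% for NFE2L2. Exons of HNRNPA3 on the other strand share 3509 bases with NFE2L2 exons, none in its canonical transcript, and HNRNPA3 was itself called higher (log2 fold change 0.30, adjusted p = 0.0131). ENSG00000222043, a non-coding gene also on the other strand, shares 190 bases, all in the canonical transcript of NFE2L2, and had 18 to 23 counts per library. On the same strand, the non-coding ENSG00000213963 shares 2037 bases, none in that transcript, and had 15 to 27 counts. Neither was called. Without the strand setting of the counting, the part of reads from these genes in NFE2L2 was not tested.

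KEAP1 (ENSG00000079999, chr19:10486125-10503558, minus strand), the adaptor that holds NRF2 for degradation, was at 197.7, 202.1 and 187.7 CPM in the control libraries and at 206.4, 183.4 and 198.1 CPM in the P4HA3 libraries. The groups overlapped throughout. The log2 fold change was 0.00 (SE 0.0621, adjusted p = 0.988), with a 95% interval from -0.14 to 0.14. KEAP1 has a GC content of 60.2%, and with the trend removed it was called higher, at 0.19 on the log2 scale (SE 0.0333, adjusted p = 0.00255). Whether KEAP1 RNA differed therefore depends on that step.

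BACH1 (ENSG00000156273, chr21:29194071-29630751, plus strand), the repressor that competes with NRF2, was at 13.8, 15.2 and 16.6 CPM in control replicates 1, 2 and 3 and at 15.2, 22.1 and 17.9 CPM in the P4HA3 replicates. As for NFE2L2, P4HA3 replicate 1 lay within the control range and replicate 2 was the highest. The log2 fold change was 0.27 (SE 0.134, adjusted p = 0.158). BACH1 was called without P4HA3 replicate 1 (0.39, adjusted p = 0.0191) and with no filter on low counts (0.28, adjusted p = 0.0456). Without P4HA3 replicate 2 it was 0.12, and with the trend removed it was 0.03 (95% interval -0.14 to 0.20), BACH1 having the second lowest GC content of the 10 genes at 38.2%. No change in the RNA of the 3 regulators was therefore called with all 6 libraries by the test as set.

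In the thioredoxin system the reductase moved and its substrate was not called. TXNRD1 (ENSG00000198431, chr12:104215779-104350307, plus strand) encodes the cytosolic thioredoxin reductase, a selenoprotein that recharges thioredoxin with electrons from NADPH. Its level was 459.1, 412 and 460.2 CPM in control replicates 1, 2 and 3 and 652.3, 720.4 and 648.8 CPM in P4HA3 replicates 1, 2 and 3, from 8778 to 16457 counts per library. The lowest P4HA3 library was thus well above the highest control. The mean CPM rose from 443.8 ± 27.5 to 673.8 ± 40.4 (SD, n = 3), or by 0.60 on the log2 scale (SE 0.0684, adjusted p = 0.000938, edgeR). With each library left out it stayed between 0.55 and 0.63, and with the trend removed it was 0.49 (adjusted p = 5.5e-05). It remained called under all 16 other settings that were run.

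TXN (ENSG00000136810, chr9:110243810-110256507, minus strand), the small disulfide reductase that TXNRD1 recharges, was at 368.5, 343.9 and 353.8 CPM in the control libraries and at 406.8, 349.6 and 390.9 CPM in the P4HA3 libraries. P4HA3 replicate 2 lay among the controls and the other 2 were above them. The log2 fold change was 0.11 (SE 0.0665, adjusted p = 0.262), and with the trend removed it was -0.08 (95% interval -0.26 to 0.09). TXN has the lowest GC content of the 10 genes, 36.8%. Its 7 pseudogenes in the table had between 0 and 8 counts per library, so that few reads were assigned to these copies.

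SRXN1 (ENSG00000271303, chr20:646615-653200, minus strand) encodes sulfiredoxin, which repairs over-oxidized peroxiredoxins. It had 35, 35 and 55 counts in control replicates 1, 2 and 3 and 52, 66 and 68 in the P4HA3 replicates, or 1.44, 1.64 and 2.25 against 2.23, 2.94 and 2.68 CPM. Control replicate 3 and P4HA3 replicate 1 were at nearly the same level, and the groups overlapped there alone. The log2 fold change of 0.55 was close to that of TXNRD1 but had a standard error of 0.197 and an adjusted p of 0.0681. SRXN1 was called without control replicate 3 (0.77, adjusted p = 0.0301) and without P4HA3 replicate 1 (0.66, adjusted p = 0.027) and with no filter on low counts (0.56, adjusted p = 0.0207), and was 0.42 without control replicate 1. Of the 2528 bases of its canonical transcript, 2292 are also exon of a longer protein-coding gene on the same strand, ENSG00000270299, which had 0 counts in every library. Reads in these bases cannot be given to 1 gene, so the level of SRXN1 is uncertain.

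Among the 10 genes, OSGIN1 and TXNRD1 had the largest log2 fold changes. OSGIN1 (ENSG00000140961, chr16:83931311-83966332, plus strand) encodes an oxidative stress-induced growth inhibitor. It was at 19, 23 and 17.8 CPM in control replicates 1, 2 and 3 and at 30.7, 32.2 and 29.1 CPM in P4HA3 replicates 1, 2 and 3, every P4HA3 library being above every control. The mean CPM rose from 20 ± 2.74 to 30.7 ± 1.53 (SD, n = 3), or by 0.62 on the log2 scale (SE 0.1, adjusted p = 0.00399, edgeR). It stayed between 0.55 and 0.74 with each library left out and was 0.89 (adjusted p = 0.000122) with the trend removed, OSGIN1 having the highest GC content of the 10 genes at 64.7%. All 16 other settings called it. Exons of MLYCD on the same strand share 457 bases with OSGIN1 exons, none of them in its canonical transcript, and MLYCD was not called (log2 fold change -0.18).

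NQO1 (ENSG00000181019, chr16:69706996-69726668, minus strand), the quinone reductase often read as the classical output of NRF2, was at 2668, 2554 and 2469 CPM in control replicates 1, 2 and 3 and at 3106, 2768 and 2778 CPM in P4HA3 replicates 1, 2 and 3. All P4HA3 libraries were above all controls, P4HA3 replicate 1 by the widest margin. The difference was small, a log2 fold change of 0.17 (SE 0.0719, 95% interval 0.01 to 0.33), and did not pass (adjusted p = 0.11). It was 0.08 with the trend removed, and no setting called it. The non-coding ENSG00000261602 on the other strand shares 575 bases with the canonical transcript of NQO1 and had 1 to 4 counts per library.

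HMOX1 (ENSG00000100292, chr22:35380361-35394214, plus strand), the haem oxygenase that BACH1 represses, was at 116.8, 124.1 and 109.2 CPM in the control libraries and at 119.4, 122.5 and 115 CPM in the P4HA3 libraries, which lay inside the control range. The log2 fold change was 0.03 (SE 0.0617, 95% interval -0.11 to 0.16, adjusted p = 0.762). With the trend removed it was 0.20 and called (adjusted p = 0.0319), its GC content being 57.7%. PIR (ENSG00000087842, chrX:15384799-15493564, minus strand) encodes pirin, an iron-binding nuclear protein. It was at 24.9, 24.3 and 23.7 CPM in control cells and at 25.2, 24.3 and 26.5 CPM with overexpression, with overlapping groups and a log2 fold change of 0.06 (SE 0.0732, 95% interval -0.10 to 0.23, adjusted p = 0.537).

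**Figure D2:**
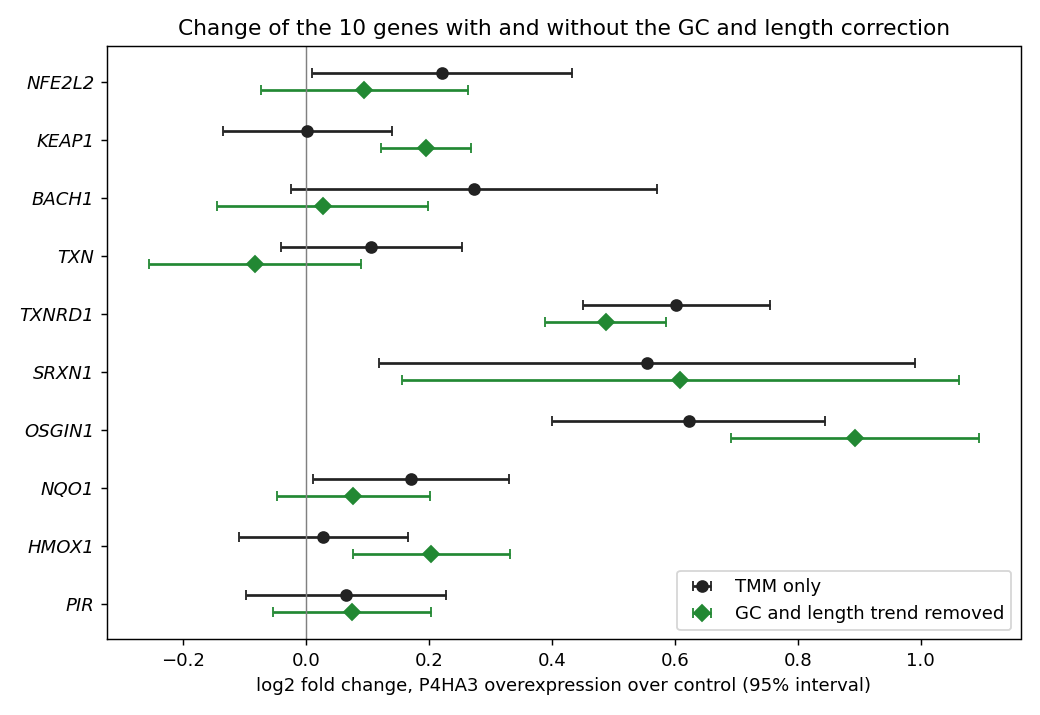
Log2 fold change of the 10 genes, P4HA3 overexpression over control, with its 95% interval, from the test with TMM normalization (circles) and after removal of the trends on GC content and length (diamonds). TXNRD1 and OSGIN1 were called in both, KEAP1 and HMOX1 only after the correction, and TXN changed sign.

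**Figure D3:**
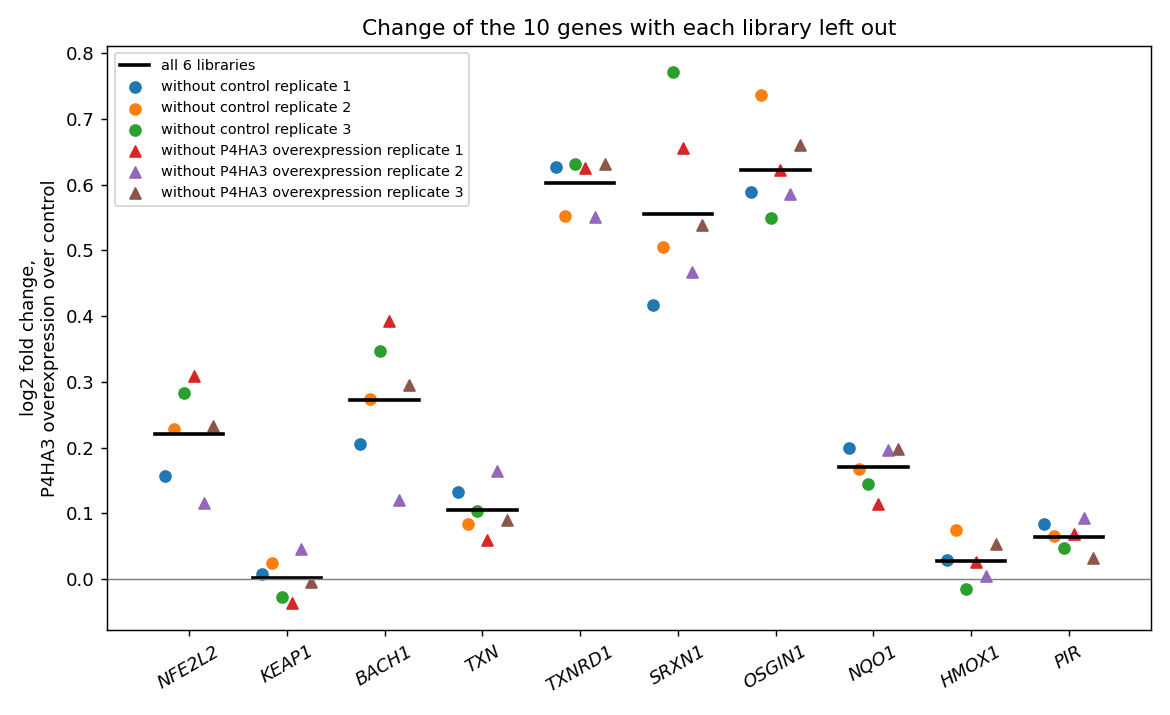
Log2 fold change of the 10 genes with all 6 libraries (bars) and after removal of each single library (circles for control, triangles for P4HA3 overexpression). TXNRD1 stayed between 0.55 and 0.63 and OSGIN1 between 0.55 and 0.74, while NFE2L2 ran from 0.12 to 0.31 and BACH1 from 0.12 to 0.39.

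Levels can be compared between genes only per length, here as CPM per kilobase of the canonical transcript. NQO1 was the most abundant of the 10 genes, with a mean of 1080 CPM per kilobase over the 6 libraries and rank 42 of 15107 genes. TXN followed at 500.5, TXNRD1 at 144.8, KEAP1 at 76.4, HMOX1 at 75.8, NFE2L2 at 52.5, PIR at 19.5, OSGIN1 at 13.2, BACH1 at 2.99 and SRXN1 at 0.869 CPM per kilobase. KEAP1 and HMOX1 did not differ beyond their spread, and every other pair of neighbours in this order had ranges that did not overlap. The place of SRXN1 is uncertain, since 2292 of the 2528 bases it was divided by are shared with ENSG00000270299. Its distance from BACH1 is uncertain for the same reason. The genes that rose thus held places 3 and 8 of 10.

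Of the 13 tested genes on the list of NRF2 partners and regulators, 1 was called higher and 3 lower, or 30.8% against 20.8% of all genes tested, and the median log2 fold change was 0.08. MAFF had the largest difference among the called genes. It encodes a small MAF protein, a partner of NRF2 and BACH1 on DNA, and was at 21.3, 20.7 and 20.2 CPM in control replicates 1, 2 and 3 and at 14.4, 12.3 and 13.8 CPM in the P4HA3 replicates. It fell by 0.62 on the log2 scale (SE 0.087, adjusted p = 0.0023), was between -0.66 and -0.56 with each library left out, and was called under all 16 other settings. MAFK also fell, from 49.4 ± 1.32 to 40.7 ± 1.72 CPM (SD, n = 3; log2 fold change -0.28, adjusted p = 0.0152), but its value was -0.06 (adjusted p = 0.448) with the trend removed. MAFG, the third small MAF gene, was not called (0.08, adjusted p = 0.336) and was called higher with the trend removed (0.19, adjusted p = 0.0222). CUL3, the scaffold of the ligase that destroys NRF2, rose from 43.7 ± 2.91 to 54 ± 3.94 CPM (SD, n = 3; log2 fold change 0.30, adjusted p = 0.0222), and was at 0.04 (adjusted p = 0.642) with the trend removed. PGAM5, a mitochondrial phosphatase that binds KEAP1, fell (log2 fold change -0.21, adjusted p = 0.0436) and was -0.11 (adjusted p = 0.0779) with the trend removed. The corrected counts were 3 higher and 1 lower, so the balance of this list depends on the correction. MAFK, CUL3 and PGAM5 each lost their call when control replicate 1, control replicate 2 or P4HA3 replicate 3 was left out, PGAM5 also without P4HA3 replicate 2. Over all genes the share called without these libraries was 5.09%, 3.47%, 5.89% and 14.3%, in that order. Without P4HA3 replicate 1, 7 of the 13 genes were called, or 53.8% against 35.9% of all genes.

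Thioredoxin's partners and the peroxiredoxins, the peroxidases it serves, gave 2 higher and 1 lower call among 17 tested genes, or 17.6% against 20.8% of all genes, with a median log2 fold change of -0.05. PRDX5 was at 235.9, 221.8 and 197.6 CPM in control replicates 1, 2 and 3 and at 170.2, 136.3 and 147.8 CPM in the P4HA3 replicates, with no overlap. Its log2 fold change was -0.53 (SE 0.0888, adjusted p = 0.00495) and -0.31 (adjusted p = 0.000707) with the trend removed, and it was called in all 16 other settings. RRM2 and RRM1, the ribonucleotide reductase subunits that draw on thioredoxin for DNA synthesis, rose by 0.24 (adjusted p = 0.0202) and 0.19 (adjusted p = 0.0461) on the log2 scale. With the trend removed they were at 0.10 and 0.07 and not called, and with upper-quartile normalization RRM1 was not called (adjusted p = 0.0554). The corrected calls were 0 higher and 3 lower, PRDX6 (-0.22, adjusted p = 0.0137) and TXNIP (-0.27, adjusted p = 0.00261) beside PRDX5. The other peroxiredoxins, PRDX1 to PRDX4 and PRDX6, were not called, and neither were the mitochondrial TXN2 and TXNRD2 nor TXNIP, the inhibitor of thioredoxin (log2 fold change -0.17, adjusted p = 0.0543). RRM1 and RRM2 lost their calls with control replicate 1, control replicate 2 or P4HA3 replicate 3 left out, RRM1 also without P4HA3 replicate 2. Over all genes the share called without these libraries was 5.09%, 3.47%, 5.89% and 14.3%, in that order. Without P4HA3 replicate 1, 9 of the 17 genes were called, or 52.9% against 35.9% of all genes. PRDX6, TXNIP and the other uncalled genes of the lists were named after their values were seen.

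Other NRF2 target genes split evenly, with 4 called higher and 4 called lower among 25 tested and a median log2 fold change of -0.03. This share, 32%, can be set beside 20.8% over all genes. The higher genes were SLC7A11, UGDH, GCLM and GCLC. GCLM and GCLC, the subunits of the enzyme that makes the first intermediate of glutathione, had log2 fold changes of 0.42 (SE 0.0668, adjusted p = 0.00397) and 0.40 (SE 0.0875, adjusted p = 0.0141). GCLM was at 73.1, 67.9 and 75.2 CPM in the control and at 90, 102.2 and 96.4 CPM in the P4HA3 libraries, without overlap. UGDH, which makes UDP-glucuronate for conjugation, rose from 51.3 ± 3.44 to 74.3 ± 4.68 CPM (SD, n = 3; log2 fold change 0.53, adjusted p = 0.00188). SLC7A11, the cystine importer that the study followed up on these samples, is therefore no independent evidence. Its log2 fold change was 1.03 with a standard error of 0.204. Control libraries had 12, 12.5 and 14.7 CPM, and P4HA3 replicates 1, 2 and 3 had 20.2, 37.4 and 22.6 CPM. P4HA3 replicate 2 was thus the highest by a wide margin. Leaving that library out lowered the estimate for SLC7A11 to 0.71, which was still called (adjusted p = 0.000335). With the trend removed GCLM was at 0.17, UGDH at 0.35, GCLC at 0.29 and SLC7A11 at 0.67, all 4 still called. GCLC lost its call without control replicate 1, control replicate 2 or P4HA3 replicate 3, and SLC7A11 without control replicate 2. The lower genes included BLVRB (-0.39), and AKR1C1 (-0.37) and ALDH3A1 (-0.36), both named after their values were seen. With the trend removed AKR1C1 was at -0.54 (adjusted p = 0.00515) and BLVRB at -0.16 (adjusted p = 0.0197), both still called, and ALDH3A1 was not called, at -0.15. AKR1C1 has near-identical neighbours among the aldo-keto reductases, so its counts are uncertain. The corrected calls were 6 higher and 2 lower. The calls in the list fell to 3 (12%) when control replicate 1 or P4HA3 replicate 3 was left out, against 5.09% and 5.89% of all genes. They fell to 2 (8%) without control replicate 2, against 3.47%. Without P4HA3 replicate 1 they numbered 14 (56%), against 35.9% of all genes.

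In the list of haem breakdown and BACH1 partners, 0 of 9 tested genes were called higher and 2 lower, BLVRB and SLC48A1, or 22.2% against 20.8% of all genes, and the median log2 fold change was -0.15. At an unadjusted p under 0.05 in edgeR's test 0 of the 9 genes were higher, against 19.3% of all genes, and DESeq2 and limma-voom also called 0 higher and 2 lower. BLVRB, a biliverdin reductase that acts downstream of haem oxygenase and is also on the list of targets, was at 148.2, 138.8 and 126.2 CPM in control replicates 1, 2 and 3 and at 116.9, 95.4 and 103.2 CPM in the P4HA3 replicates. Its log2 fold change of -0.39 (SE 0.0837, adjusted p = 0.013) was -0.16 with the trend removed (adjusted p = 0.0197). SLC48A1, a haem transporter, was at -0.26 (adjusted p = 0.0239), and at -0.12 (adjusted p = 0.146) with the trend removed. The ferritin genes FTH1 and FTL, which are targets of both factors, had log2 fold changes of -0.0045 and -0.03, with 95% intervals from -0.18 to 0.17 and from -0.24 to 0.17. Leaving out control replicate 1, control replicate 2 or P4HA3 replicate 3 ended both calls, where 5.09%, 3.47% and 5.89% of all genes were called. Without P4HA3 replicate 1, 4 were called, or 44.4% against 35.9% of all genes. Without P4HA3 replicate 2, 1 was called, or 11.1% against 14.3%.

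**Figure D4:**
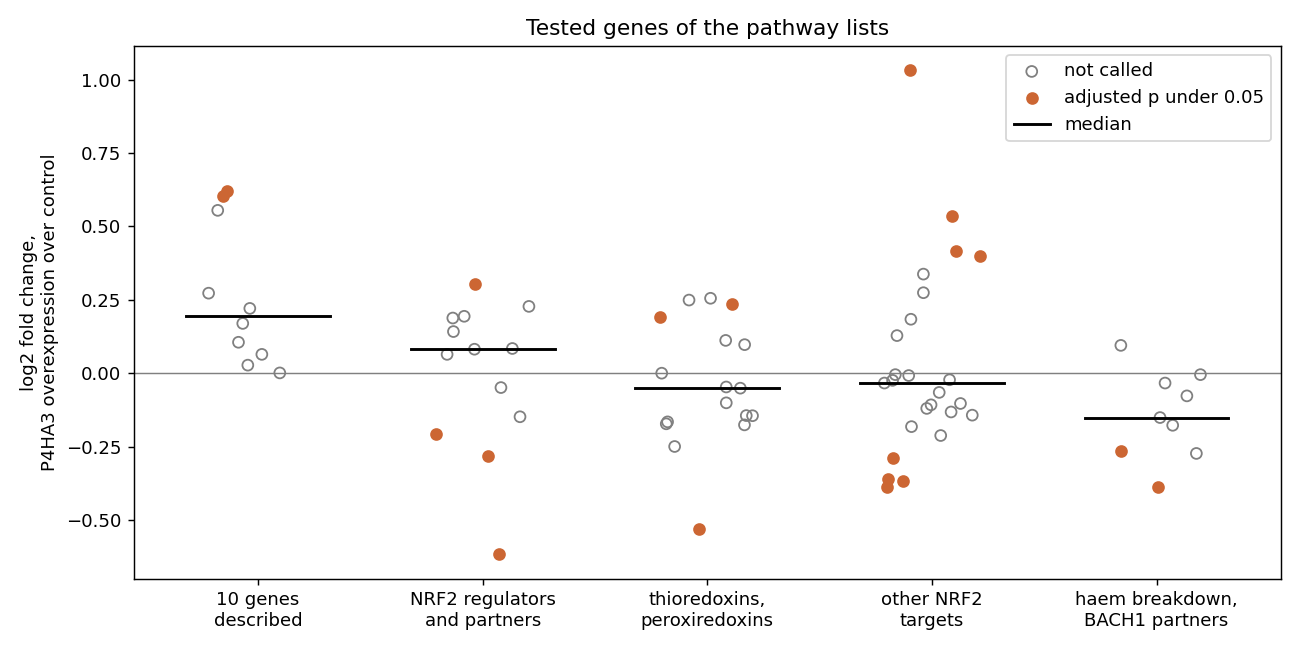
Log2 fold change of the 10 genes and of the tested genes of 4 lists, P4HA3 overexpression over control, with 1 point per gene, filled where the adjusted p was under 0.05, and the median of each list as a bar. TXNRD1 and OSGIN1 are the filled points of the first column, and the NRF2 targets hold 4 filled points above and 4 below 0.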

How the data were processed

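Raw counts per Ensembl gene were deposited by the authors for 6 libraries, without normalization. According to the study's methods, strand-specific poly-A libraries were aligned to GRCh38 (Ensembl 104) with STAR and counted with HTSeq. The submitters' processing notes name HISAT2 instead. Versions, strand setting and treatment of multi-mapping reads are not given in the sources used here. Genes kept by filterByExpr (minimum count 10) were normalized by TMM and the 2 groups compared with the quasi-likelihood test of edgeR 4.0.16 in R 4.3.3, two-sided, with Benjamini-Hochberg adjustment over 15130 genes. Standard errors were derived from the unshrunken log2 fold changes and their F statistics. Symbols, positions, GC content and lengths came from GENCODE 44, which matched 60463 of 60664 identifiers. In the GC and length correction, smooth terms (mgcv 1.9.3) of each library's deviation were entered as an offset. Other settings were DESeq2 1.42.0, limma-voom (limma 3.58.1), other normalizations and filters, a replicate block, each library left out and an adjusted p under 0.01. The 10 genes were given by name, and they, the 4 lists and the settings were chosen with earlier results of these data known. Genes of the lists were named by rule: the called genes, at most the 4 with the largest change per list, and the 3 genes most like NFE2L2. Libraries held 21773488 to 24939948 counts, and few counts give wide intervals. Whether samples of the same replicate number were prepared together is not given, and the main test took them as unpaired. A gene of the lists is not reported here by name.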

Additional observations from a re-analysis of the deposited data

How the results depend on the processing

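TXNRD1, OSGIN1, MAFF, PRDX5, GCLM and UGDH kept their direction and their call under all 16 other settings that give single genes a value. Of the 10 genes, 2 were called with DESeq2, limma-voom, the other normalizations and at least 10 counts in every library. In these settings 19.9% to 21.9% of all genes were called. At an adjusted p under 0.01, 2 were called, against 4.81% of all genes. With no filter on low counts 5 were called (16.3% of all genes), and with the GC and length correction 4 (18.5%). With a library left out between 2 and 5 were called (3.47% to 35.9%). The 5 calls without P4HA3 replicate 1 stand beside the 35.9%. Over all genes, an adjusted p under 0.01 left 728 calls, and leaving out a library gave between 534 and 5530. In the lists the stricter threshold left 1 call among NRF2 regulators, 1 among thioredoxin partners, 3 among other targets and 0 in haem breakdown. These stand beside 4.81% of all genes. The correction left 1 call in haem breakdown, beside 18.5% of all genes. With a library left out these lists had between 1 and 7, 1 and 9, 2 and 14, and 0 and 4 calls, where 3.47% to 35.9% of all genes were called.

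Whether same-numbered libraries share a preparation is not given. Their deviations from the group means correlated at 0.25, -0.05 and 0.03, which does not decide it. With the replicate block 4 of the 10 genes were called, NFE2L2 (0.22, adjusted p = 0.029, edgeR) and SRXN1 (0.55, adjusted p = 0.0308) being added, against 4313 calls or 28.5% of all genes. With the block and the correction together 5 were called, SRXN1 (0.61, adjusted p = 0.0315) among them, and 1 in haem breakdown, against 3536 calls or 23.4%.

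Sign changes touched only values that were not called. KEAP1 was -0.0060 with upper-quartile normalization, -0.00057 with at least 10 counts in every library, and between -0.037 and 0.046 with a library left out. HMOX1 ran from -0.016 to 0.075 with a library left out. TXN was -0.084 with the correction and -0.091 with the block added. DESeq2 gave SRXN1 no adjusted p. The cause of these changes was not tested. SRXN1 had 35 to 68 counts per library, and neither depth nor its shared exon bases was tested as the reason.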
